A study of Mus musculus with 10 samples.

Results

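Lcn2, Saa3, Hp, Cp, Ptx3 and Orm1 are 6 genes of the acute-phase response, and they were taken by gene symbol from a table of 17171 genes measured in cells of a mouse breast cancer line. All 6 symbols were found, once each, in all 10 libraries. Of these genes, Lcn2 was higher in PyMt cells grown in test CD4+ T cell supernatant than in control supernatant, from 6.17 to 23.60 FPKM in control libraries to 79.14 to 287.36 FPKM in test libraries (FPKM, fragments scaled to transcript length and sequencing depth). Cp was among the 301 highest genes in every library and stayed between 217.83 and 319.02 FPKM. The other 4 genes were at or near 0 in control libraries and did not exceed 4.87 FPKM anywhere.

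Acute-phase proteins are secreted proteins whose levels in blood change during infection, injury or inflammation, and the liver is their best known source. IL-6 family cytokines act through STAT3, and IL-1, TNF and IL-17 act through NF-kB and C/EBP factors, to raise transcription of these genes in hepatocytes and, for several of them, in epithelial cells. Lcn2 and Saa3 are members that epithelial cells and macrophages make locally, and Ptx3 is a pentraxin made mostly outside the liver. In mammary tissue Lcn2 is known from involution, inflammation and tumors.

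The PyMt line was derived from tumors of transgenic mice on the C57BL/6 background that carry the polyoma middle T oncogene under the mouse mammary tumor virus promoter, and it is 1 line. Cells were cultured in low-adherence plates with insulin in supernatants of CD4+ T cells. Test supernatant came from CD4+ T cells of mice that carry a Tslp transgene driven by the keratin 14 promoter, and the labels also give these donors the PyMt transgene. Control supernatant came, per the study's methods, from CD4+ T cells of Tslpr knockout mice, which lack the TSLP receptor, and the labels list both Tslp-PyMttg TslprKO and PyMttg donors as control without saying which served which library. The T cells of both arms were stimulated ex vivo with anti-CD3 and anti-CD28 antibodies, TSLP and IL-2, so both supernatants could hold TSLP and IL-2. The ages of the donor mice are not given in the labels. The 10 libraries carry 5 tags with 2 libraries each. Blank and Control libraries are both titled as control supernatant (4 libraries) and Test1, Test2 and Test3 libraries as test supernatant (6 libraries). The tag Blank is not explained, so these sets are given apart. Separate cultures are not stated for any 2 libraries, so the p-values here cover a spread among libraries that may be of technical origin.

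Read totals are not in the table. The spacing of low FPKM values in genes with a single transcript put the depth at 12.42 to 13.66 M reads (M for mega) in a control library and 10.82 to 15.22 M in a test library, and values near 0 below are also given as estimated reads on this basis, with counting error only. Markers of mammary epithelium matched the label in part. Krt8 and Krt18, keratins of luminal cells, summed with 5 other epithelial genes to 1124.68 to 2887.7 FPKM, the adhesion genes Epcam and Cdh1 were lower (3.59 to 14.24 FPKM), and the basal keratin Krt5 did not exceed 0.07 FPKM. Vim, a mesenchymal filament gene, was at 1584.68 to 2291.81 FPKM while 5 of 7 fibroblast markers stayed under 1 FPKM in every library. All 3 hepatocyte markers in the table (of 9 listed) stayed under 1 FPKM.

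Lcn2 encodes lipocalin 2, a secreted protein that binds bacterial siderophores and so withholds iron from bacteria. The gene lies on chromosome 2 (32384637 to 32387739, minus strand, GRCm38.p6) and the transcript that the table gives for it has 915 bases. Lcn2 was at 6.17 and 6.89 FPKM in the Blank libraries and at 23.60 and 19.19 FPKM in the Control libraries. It was at 111.54 and 148.57 FPKM in Test1, at 287.36 and 222.86 FPKM in Test2, and at 79.14 and 107.35 FPKM in Test3. All 6 test libraries were above all 4 control libraries, as was the case for 3.21% of tested genes. No 2 sets overlapped, although Test1 and Test3 lay close to each other (111.54 and 107.35 FPKM at their nearest). The share of all genes with sets apart in this way was not counted. These values rest on an estimated 72.9 to 275.2 reads in control libraries and 783.5 to 3783.2 reads in test libraries. Counting error is thus small beside the spread among all control or all test libraries. Within the Blank set, at 72.9 and 81.2 reads, it could be as large as the difference between the libraries. By level, Lcn2 ranked 7530 and 7174 of 17171 genes in the Blank libraries and 255 and 294 in the Test2 libraries.

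**Figure D1:**
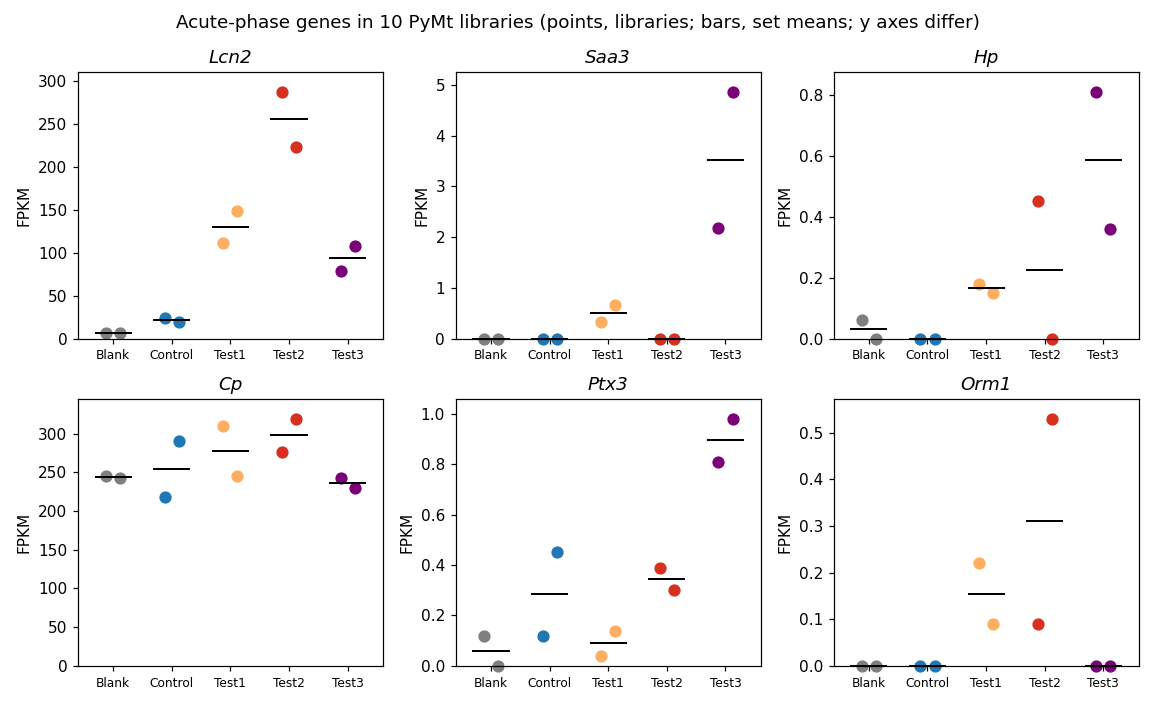
FPKM (y axis, linear from 0, a different scale in each panel) of the 6 acute-phase genes in the label sets Blank, Control, Test1, Test2 and Test3. Points are libraries (2 per set) and bars are set means; Lcn2 ran from 6.17 to 287.36 FPKM while Cp stayed between 217.83 and 319.02 FPKM, and Saa3, Hp, Ptx3 and Orm1 were near 0 in most libraries.

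The comparison of test with control asked which genes of the tumor cells respond to products of TSLP-activated CD4+ T cells. Lcn2 averaged 159.5 ± 79.95 FPKM (SD, n = 6) in test and 13.96 ± 8.77 FPKM (SD, n = 4) in control libraries. On the log2(FPKM + 1) scale the difference was 3.49 (SE 0.42, 95% interval 2.57 to 4.41), a fold of 11.2, with an adjusted p of 0.001954 from limma with Benjamini-Hochberg adjustment over 11169 genes. It was the 7th largest rise among those genes. Over the 210 ways to split the libraries, the exact permutation test (two-sided) gave p = 0.00476, the smallest value that this design allows. Of the 6 acute-phase genes, 2 (Lcn2 and Cp) passed the filter on low values (1 FPKM or more in 4 or more libraries), and 1 of these 2 was called higher, against a background of 2.95% of all tested genes called higher. A change per cell and a change in the share of expressing cells cannot be told apart in these bulk libraries. With the 5 set means as the unit (3 against 2), the difference was again 3.49 (SE 0.55), with an unadjusted p of 4.33e-04 and an adjusted p of 0.2477 from limma. No gene of the 11169 was called in that fit, and 1426 had an unadjusted p under 0.05.

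The control sets were not alike for Lcn2. Control-tagged libraries averaged 21.4 FPKM and Blank-tagged libraries 6.53 FPKM, a difference of 1.57 on the log2 scale (SE 0.20, 95% interval 1.12 to 2.01, limma adjusted p = 8.11e-04). In this comparison 4.55% of all genes were called higher. The rise in test supernatant was present against either set. Against the Control-tagged libraries alone, the mean of the test sets was higher by 2.71 on the log2 scale (SE 0.16, 95% interval 2.34 to 3.07, limma adjusted p = 1.44e-05), where 2.00% of all genes were called higher. Each test set was also called above Control-tagged libraries on its own, by 2.54 (Test1), 3.51 (Test2) and 2.06 (Test3) on the log2 scale (limma adjusted p of 1.67e-04, 2.05e-05 and 1.85e-04). The shares of all genes called higher in these comparisons were 1.44%, 0.492% and 4.23%. Above the Blank set, Lcn2 was higher by 4.11 in Test1, 5.08 in Test2 and 3.63 in Test3 (limma adjusted p of 2.99e-07, 6.64e-08 and 7.03e-07), where 7.71%, 8.74% and 9.46% of all genes were called higher. For Test2 against Control, only 1 of 11169 genes had a larger rise than Lcn2.

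The test sets also differed in Lcn2. By set means the order was Test2 (255.1 FPKM), Test1 (130.1 FPKM), Test3 (93.25 FPKM), Control (21.4 FPKM) and Blank (6.53 FPKM). Against the mean of Test1 and Test2, Test3 had a log2 difference of -0.96 (SE 0.17, 95% interval -1.35 to -0.58, limma adjusted p = 0.01128), with 3.13% of all genes called lower. Test3-1 weighed on this call: without it the difference was -0.74 with an adjusted p of 0.1561 from limma, and an unadjusted p of 0.005501. Test3 minus Test2 was -1.45 (limma adjusted p = 0.003089), where 3.55% of all genes were called lower. Neighbours in the order that did not pass the threshold were Test2 and Test1, which differed by 0.97 (95% interval 0.52 to 1.41, unadjusted p = 6.62e-04, limma adjusted p = 0.122, with 0.161% of all genes called), and Test1 and Test3, which differed by 0.48 (interval of Test3 minus Test1 -0.92 to -0.03, limma adjusted p = 0.2687, with 1.03% of all genes called lower). The other neighbours, Test3 with Control and Control with Blank, passed it.

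**Figure D2:**
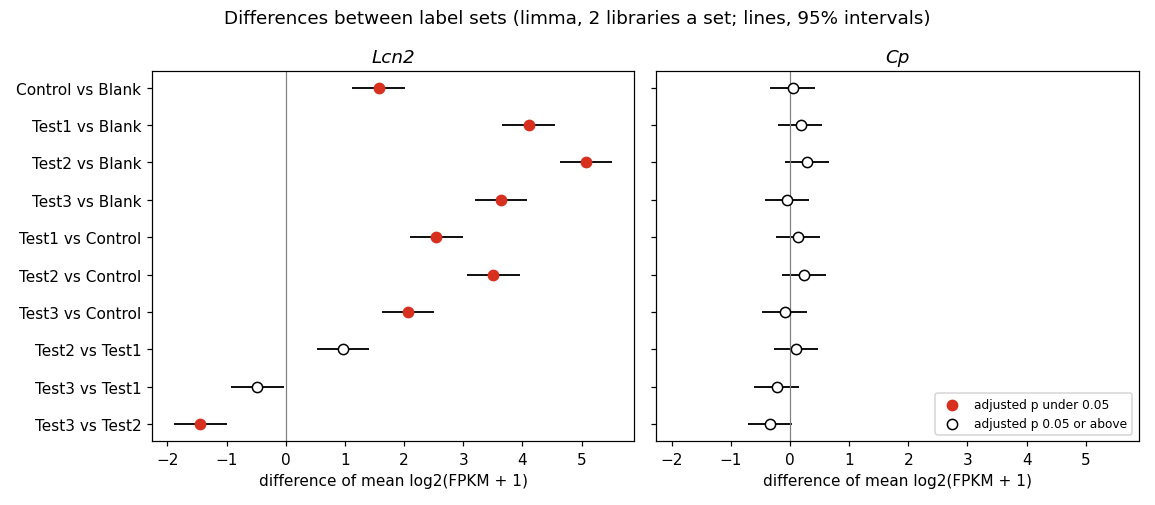
Differences of mean log2(FPKM + 1) (x axis) between label sets (y axis, the first set named minus the second) for Lcn2 and Cp, from limma with 2 libraries per set. Lines are 95% intervals and filled points have an adjusted p under 0.05; Lcn2 passed in 8 of 10 pairs, from -1.45 to 5.08, and Cp in 0 of 10.

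Levels of other cell types' markers were read beside Lcn2, since neutrophils and macrophages also make it. Neutrophil markers (5 of 9 listed were in the table, 3 of them under 1 FPKM in every library) summed to 10.14 to 17.32 FPKM in control and 11.62 to 18.22 FPKM in test, ranges that overlapped. The 2 neutrophil genes above 1 FPKM moved in opposite directions between Test3 and the mean of Test1 and Test2. S100a8, a calcium-binding protein abundant in neutrophils, had set means of 10.7 FPKM in Test1, 13.9 FPKM in Test2 and 4.32 FPKM in Test3 (log2 difference -1.40, limma adjusted p = 0.01791), the same order as Lcn2, and 11.4 FPKM in Blank and 7.84 FPKM in Control. Cxcr2, a chemokine receptor, was higher in Test3 (1.03, limma adjusted p = 0.02). The part of these cells in the values of Lcn2 was not tested. Macrophage markers summed to 5.62 to 9.91 FPKM in control and 6.44 to 10.35 FPKM in test, and consisted mostly of Cd68. T cell markers in the table were Cd3d and Lck (2 of 7 listed), and they summed to 0.98 to 4.87 FPKM in control and 2.32 to 16.91 FPKM in test. Lck did not exceed 0.26 FPKM, so this sum is nearly the level of Cd3d alone. The highest T cell sum was in Test3-1, the test library with the lowest Lcn2, and both Test2 libraries, with the highest Lcn2, had 2.32 and 3.04 FPKM. The epithelial marker sum was 1300.26 and 1387.21 FPKM in Blank, 2760.68 and 2790.08 FPKM in Control, 2230.88 and 2288.27 FPKM in Test1, 2887.7 and 2387.09 FPKM in Test2, and 1124.68 and 1444.5 FPKM in Test3. The Test2 values of this sum lay on both sides of those in Control, and the Test3 values on both sides of those in Blank. The sum consisted mostly of Krt8 and Krt18, which themselves differed between sets. Control minus Blank was 0.84 for Krt8 and 1.19 for Krt18, and Test3 minus the mean of Test1 and Test2 was -1.07 and -0.87 (highest limma adjusted p = 0.009015). It is thus no measure of cell content, and the part of these marker sums in the values of Lcn2 was not tested.

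Cp encodes ceruloplasmin, a copper-carrying ferroxidase that oxidizes iron as it leaves cells. The gene lies on chromosome 3 (19956933 to 20009750, plus strand) with 3 transcripts in the table of 4029 to 4504 bases, and 108 exon bases overlap Hps3 on the other strand. Whether the counting used strand is not given in the sources used here, so these bases could hold reads of either gene. Cp was at 245.10 and 242.65 FPKM in Blank, 217.83 and 290.77 FPKM in Control, 310.36 and 245.17 FPKM in Test1, 276.54 and 319.02 FPKM in Test2, and 242.00 and 229.91 FPKM in Test3. The groups overlapped, and 3 of 4 control libraries lay within the range of the test libraries. Cp averaged 270.5 ± 37.63 FPKM (SD, n = 6) in test and 249.1 ± 30.4 FPKM (SD, n = 4) in control. The log2 difference was 0.11 (SE 0.12, 95% interval -0.15 to 0.38, limma adjusted p = 0.5968), and the exact permutation p was 0.324. A change of a size within that interval could not be told from none. By set means the order was Test2 (297.8 FPKM), Test1 (277.8 FPKM), Control (254.3 FPKM), Blank (243.9 FPKM) and Test3 (236 FPKM), and no neighbours in it differed beyond their spread. None of the 10 pairs of sets was called, and the largest difference was that of Test3 from Test2 (-0.33 on the log2 scale, unadjusted p = 0.07678, limma adjusted p = 0.2497).

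Measured per length, the level of Lcn2 relative to Cp moved from 2.52% and 2.84% in the Blank libraries to 10.8% and 6.6% in the Control libraries. It was 35.9% and 60.6% in Test1, 104% and 69.9% in Test2, and 32.7% and 46.7% in Test3. In Test2-1 the level of Lcn2 was thus above that of Cp.

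Saa3 encodes serum amyloid A 3, a lipid-binding protein of high-density lipoprotein that is made in tissues outside the liver in mice. The gene lies on chromosome 7 (46711998 to 46719615) and its transcript has 555 bases. Saa3 was listed at 0 in all 4 control libraries and in both Test2 libraries. It was at 0.33 and 0.67 FPKM in Test1 and at 2.18 and 4.87 FPKM in Test3. The Test3 values rest on an estimated 13.1 and 32.7 reads and the Test1 values on 2.2 and 5.1 reads, and 1 read is worth 0.13 to 0.167 FPKM, so a level below that could not be detected. The Test2 libraries, highest in Lcn2, were thus at 0 in Saa3. Saa1, a relative that could share reads with Saa3, did not exceed 0.15 FPKM.

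Ptx3 encodes pentraxin 3, a secreted pattern recognition protein of innate immunity, and lies on chromosome 3 (66219887 to 66225806) with a transcript of 1898 bases. It was at 0.12 and 0 FPKM in Blank, 0.12 and 0.45 FPKM in Control, 0.04 and 0.14 FPKM in Test1, 0.39 and 0.30 FPKM in Test2, and 0.81 and 0.98 FPKM in Test3. The Test3 libraries, with an estimated 16.6 and 22.5 reads, were above the other 8, of which Control-2, with 10.6 reads, had the highest FPKM. The same order, with both Test3 libraries above the other 8, was seen for Saa3 and for 7.25% of the 6002 genes that missed the filter.

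Hp encodes haptoglobin, which binds free hemoglobin. The gene lies on chromosome 8 (109575128 to 109579172) with a transcript of 1345 bases. Hp was at 0.06 and 0 FPKM in Blank and listed at 0 in both Control libraries. It was at 0.18 and 0.15 FPKM in Test1, 0.45 and 0 FPKM in Test2, and 0.81 and 0.36 FPKM in Test3. Of the 6 test libraries 5 were above every control library, on at most 11.8 estimated reads.

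Orm1 encodes orosomucoid 1, a plasma glycoprotein that carries lipophilic molecules, and lies on chromosome 4 (63344556 to 63348163) with a transcript of 775 bases. It was listed at 0 in all 4 control libraries and in both Test3 libraries. It was at 0.22 and 0.09 FPKM in Test1 and at 0.09 and 0.53 FPKM in Test2. These values rest on an estimated 1.0 to 4.8 reads. Its near copies Orm2 and Orm3 reached at most 0.09 and 0.58 FPKM, and reads could be split among the 3 genes.

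**Figure D3:**
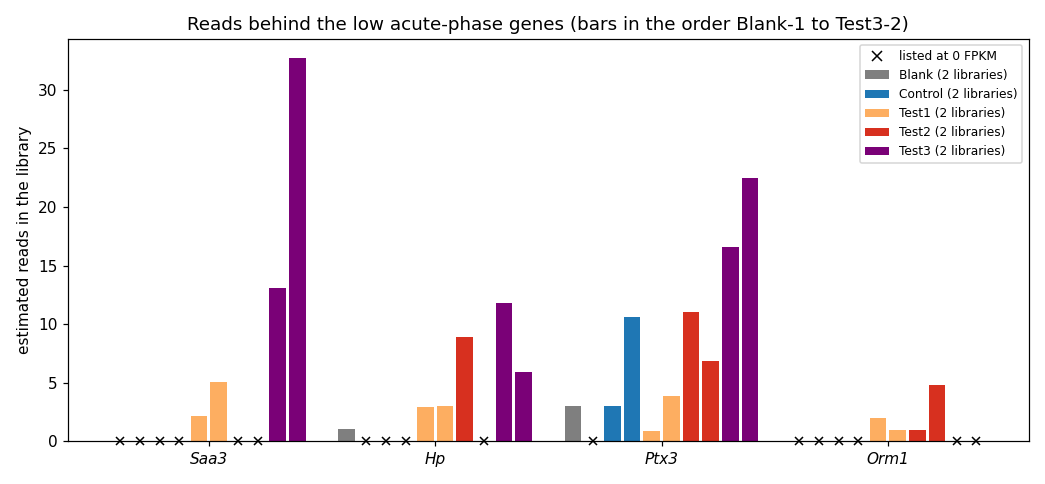
Estimated reads (y axis, linear from 0) of Saa3, Hp, Ptx3 and Orm1 in each library, with bars in the order Blank-1, Blank-2, Control-1, Control-2, Test1-1 to Test3-2 and crosses for values listed at 0. The tallest bars are the Test3 libraries for Saa3 (13.1 and 32.7 reads) and Ptx3 (16.6 and 22.5 reads), and no bar of Orm1 exceeds 4.8 reads.

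None of these 4 genes separated test from control by the exact two-sided permutation test. The differences of mean log2(FPKM + 1) were 0.90 for Saa3 (p = 0.133, permutation), 0.36 for Hp (p = 0.0619, permutation), 0.27 for Ptx3 (p = 0.229, permutation) and 0.19 for Orm1 (p = 0.133, permutation). Saa3 and Orm1 were at 0 in all control libraries and above 0 in 4 of 6 test libraries, a pattern shared by 0.916% of the genes that missed the filter. All 4 missed it, as 35.0% of all genes did, and all 4 had a higher mean in test, as did 54.0% of the genes that missed it. When the filter was dropped and all 17171 genes were fitted, 0 of these 4 genes was called between test and control (limma adjusted p of 0.1908 to 0.4817), while Hp alone had an unadjusted p under 0.05 (0.02612). In the same fit, where 3.91% of all genes were called, Saa3 and Ptx3 were called in Test3 against the mean of Test1 and Test2. Their differences were 1.82 (SE 0.22, limma adjusted p = 0.007582) and 0.65 (SE 0.11, limma adjusted p = 0.02798) on the log2(FPKM + 1) scale, which understates changes of low genes. With any of the 6 test libraries left out, Saa3 kept this call (differences of 1.38 to 2.27, limma adjusted p of 0.001933 to 0.04155) and Ptx3 lost it (0.58 to 0.71, limma adjusted p of 0.06876 to 0.1049). In Saa3, both libraries of the Blank, Control and Test2 sets were at 0. These sets add no spread to the fit, so the SE of 0.22 may be too small, and no control library was left out here. For Test3 against the mean of Test1 and Test2, Hp had 0.41 (limma adjusted p = 0.2139) and Orm1 -0.29 (limma adjusted p = 0.2428).

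By set means, Lcn2, Cp and Orm1 ran from Test2 through Test1 to Test3, Hp and Ptx3 from Test3 through Test2 to Test1, and Saa3 from Test3 through Test1 to Test2. These orders are descriptions. Between Test1 and Test2, limma called neither Lcn2 nor Cp in the filtered fit (adjusted p of 0.122 and 0.8008), where 0.161% of all genes were called. Without the filter it called 0 of the 6 genes, where 0.0233% of all genes were called. Lcn2 had an unadjusted limma p under 0.05 in the filtered fit (6.62e-04), and Ptx3 had one in the unfiltered fit (0.04752). Lcn2 was lower in Test3 than the mean of the other test sets with all libraries in the fit, while Saa3 was higher there, as was Ptx3 with all libraries in. The T cell marker sum, nearly all Cd3d, was 16.91 and 5.29 FPKM in Test3-1 and Test3-2, and Saa3 was higher in Test3-2. Its part in the values was not tested.

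Sequence upstream of the start site was read for the genes matched in a table of RefSeq promoters for GRCm38.p6 (4 of 6, without Hp and Orm1), and is shown for Lcn2, which rose, for Cp, which was high in every library, and for Saa3 and Ptx3, which were highest in Test3. Each stretch ends before the start of the transcripts that the table gives for the gene. It was shortened for Lcn2, where GENCODE has an exon of another Lcn2 transcript further upstream, and for Cp, whose RefSeq span begins before this transcript start. For Lcn2 and Saa3 it was shortened also because GENCODE places the start 58 and 24 bases upstream of the RefSeq start site. The Saa3 stretch lies within the longer RefSeq span of the gene. Capitals mark a motif match.
Lcn2 (chr2:32387798-32387850, minus strand): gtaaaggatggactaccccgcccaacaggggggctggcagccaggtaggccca
Cp (chr3:19956804-19956932, plus strand): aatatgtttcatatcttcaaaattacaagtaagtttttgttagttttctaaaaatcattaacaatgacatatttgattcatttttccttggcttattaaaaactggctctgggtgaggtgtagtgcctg
Saa3 (chr7:46715701-46715926, minus strand): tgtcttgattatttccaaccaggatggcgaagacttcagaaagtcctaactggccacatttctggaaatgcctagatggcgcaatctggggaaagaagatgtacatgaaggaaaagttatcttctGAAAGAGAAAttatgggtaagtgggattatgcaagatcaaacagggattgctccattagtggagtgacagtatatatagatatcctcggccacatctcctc
Ptx3 (chr3:66219637-66219886, plus strand): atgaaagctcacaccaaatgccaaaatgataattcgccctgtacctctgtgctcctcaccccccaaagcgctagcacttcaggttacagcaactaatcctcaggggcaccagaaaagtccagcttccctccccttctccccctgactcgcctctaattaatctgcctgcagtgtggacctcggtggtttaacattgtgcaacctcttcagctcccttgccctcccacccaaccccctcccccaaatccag

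Motifs of the pathway were searched on both strands of the 250 bases before each start site, including bases not printed: the NF-kB consensus, the STAT site TTCNNNGAA, the C/EBP site TTNNGCAAT and the interferon response element (paired TTTC runs that are separated by a pair of bases). Saa3 had 1 match, GAAAGAGAAA, to the interferon response element in the orientation opposite to those runs, from base -125 to base -116 counted from the RefSeq start site. Such a match was found in 2.98% of 32851 promoters. Lcn2, Cp and Ptx3 had no match in this window to any of the 4 motifs, which were found in 7.25% (NF-kB), 7.02% (STAT), 1.93% (C/EBP) and 2.98% (interferon) of all promoters. A match is a run of letters and not a measured site, and these strict spellings miss sites that differ from them by a base.

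Other acute-phase genes were counted from a list. Of 30 other positive acute-phase genes, those whose products rise in the response, 18 were in the table and 4 passed the filter. Steap4 and C3 were called higher in test and none was called lower, where 2.95% of all genes were called higher (median difference 1.26, against -0.03 over all tested genes). By set means Steap4 was at 0.205 FPKM in Blank and 0.815 FPKM in Control, so it needed its test libraries to pass the filter. Steap4, a metalloreductase of iron and copper, rose from a control level of 0.51 ± 0.37 FPKM (SD, n = 4) to 7.04 ± 2.30 FPKM in test (SD, n = 6; log2 difference 2.39, limma adjusted p = 7.67e-04). C3, the central component of complement, rose from 4.26 ± 3.64 to 19.9 ± 3.17 FPKM (log2 difference 2.30, limma adjusted p = 0.007993). C3 differed between the control sets, with 1.11 FPKM in Blank and 7.41 FPKM in Control by set means (log2 difference 1.99, limma adjusted p = 1.84e-05). Against Control-tagged libraries alone C3 was higher by 1.3 and Steap4 by 2.10 on the log2 scale (limma adjusted p of 3.19e-04 and 9.52e-05). Cd14, a receptor for lipopolysaccharide, and Agt, the precursor of angiotensin, had differences of -0.05 and 0.22 that did not pass. Of 9 negative acute-phase genes, whose products fall in the response, 2 of 5 in the table passed the filter and 0 were called by limma (0 at an unadjusted p under 0.05).

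The cytokines, receptors and factors that induce acute-phase genes were nearly all expressed. Of 26 listed genes 24 were in the table and 22 were tested. Of these, 12 were called higher and 1 lower in test, where 2.95% and 4.92% of all genes were, with a median difference of 0.80 against -0.03 over all genes. Il6 and Il1a, both among the 12, averaged under 1 FPKM in each control set, so they needed their test libraries to pass the filter. Against Control-tagged libraries alone, 10 were called higher and 1 lower, where 2.00% and 1.61% of all genes were. The largest rises were in Il6 (0.68 ± 0.29 to 40.0 ± 17.4 FPKM, log2 difference 4.49, limma adjusted p = 8.79e-05), which encodes the main inducer of the hepatic response, in Socs3 (2.58), a feedback inhibitor of STAT3 signaling, in Lif (2.32), a cytokine of the IL-6 family, in Cebpd (2.24), a C/EBP factor, and in Nfkbiz (2.13), an NF-kB cofactor. Against Control-tagged libraries alone the differences were 4.70 for Il6, 1.59 for Socs3, 1.5 for Lif, 1.64 for Cebpd and 1.07 for Nfkbiz, and all 5 were called (highest limma adjusted p = 0.001951). Il6ra, the ligand-binding chain of the IL-6 receptor, fell by 0.65 on the log2 scale (10.7 ± 1.24 to 6.61 ± 1.74 FPKM, limma adjusted p = 0.03564). Among the other transcription factors of the list, Nfkb1 (1.52), Nfkb2 (0.94) and Relb (0.73) of the NF-kB family were called higher (limma adjusted p of 0.0171, 0.01686 and 0.03513), while Stat3 (0.75), Cebpb (0.72) and Rela (0.24) did not pass the threshold between test and control (limma adjusted p of 0.1574, 0.1925 and 0.1782). Between the control sets, 11 of the 22 were called higher in the Control set, where 4.55% of all genes were, and 0 in the Blank set, Stat3 being one of the 11 (23.4 to 70.5 FPKM by set means, log2 difference 1.55, limma adjusted p = 2.37e-05). Il6 was no part of that: it was at 0.92 FPKM in Blank and 0.44 FPKM in Control (log2 difference -0.42, limma adjusted p = 0.1309). Between test sets Il6 was higher in Test3 (0.97 above the mean of the other test sets on the log2 scale, limma adjusted p = 0.001514), the contrast in which Lcn2 was lower. Il1a, Il6ra, Nfkb1, Nfkb2, Relb, Stat3, Cebpb and Rela, the genes Cd14, Agt, S100a8 and Cxcr2 above, and the contrasts of Il6 and Stat3 between sets, were chosen after their values were seen.

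**Figure D4:**
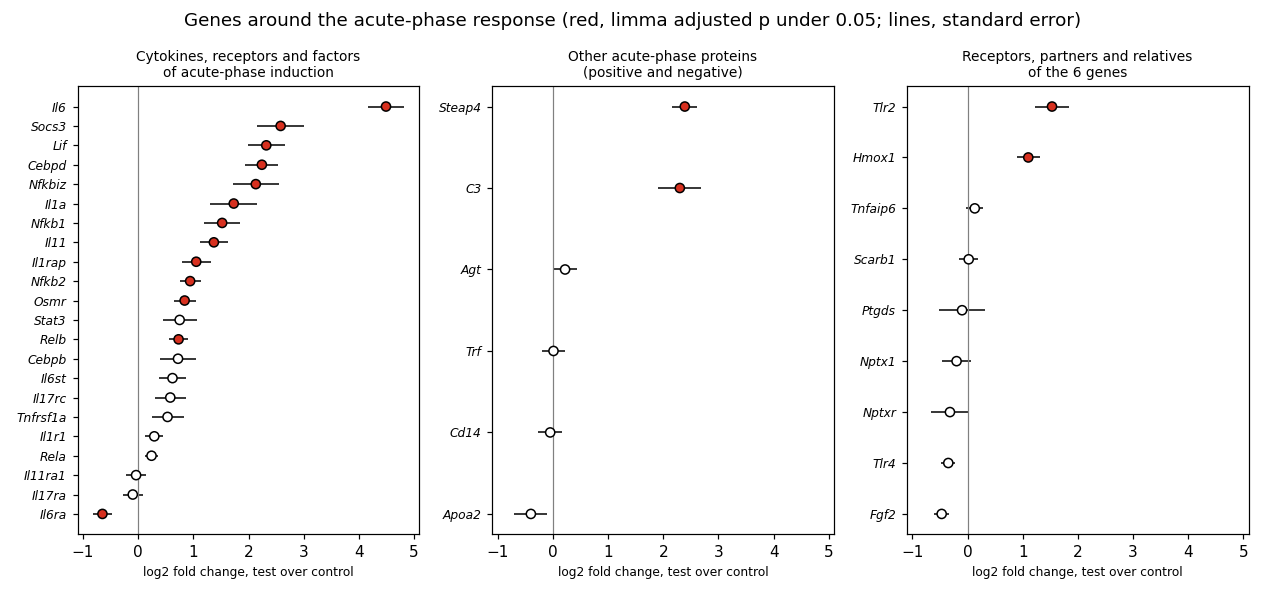
Differences of mean log2(FPKM + 1) between test and control (x axis) for the tested genes of the lists around the acute-phase response (y axis), from limma over 6 test and 4 control libraries. Red points have an adjusted p under 0.05 and lines are standard errors; Il6 (4.49) had the largest difference and Il6ra (-0.65) was the called gene that fell.

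Receptors and partners of the 6 proteins gave a shorter list, with 13 of 18 in the table and 6 tested. Tlr2, an innate receptor that serum amyloid A can engage, rose from 3.85 ± 1.76 to 13.2 ± 6.02 FPKM (log2 difference 1.53, limma adjusted p = 0.01568). Hmox1, the heme oxygenase that acts after haptoglobin-bound hemoglobin is taken up, rose from 6.38 ± 1.64 to 15.0 ± 4.07 FPKM (log2 difference 1.10, limma adjusted p = 0.01246). None of the 6 was called lower, the share of all genes called higher was 2.95%, and the median difference was 0.08. Against Control-tagged libraries alone Tlr2 was higher by 1.06 and Hmox1 by 0.89 (limma adjusted p of 3.48e-04 and 0.009977). Slc22a17, a described receptor of lipocalin 2 and chosen here after its values were seen, did not exceed 0.36 FPKM. Of 26 relatives of the 6 proteins by family, 14 were in the table and 3 were tested, and 0 were called between test and control by limma (0 at an unadjusted p under 0.05), with a median difference of -0.20.

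The genes nearest to Lcn2 in pattern were sought by the root mean square distance of centred log2(FPKM + 1) values over the 10 libraries, among 11169 genes. They were Csf3 (0.415), Mt2 (0.705) and C3 (0.73), where the median gene was at 1.874. Csf3 encodes the granulocyte growth factor G-CSF, and was at 5.08 FPKM in Blank, 21.6 FPKM in Control, 184 FPKM in Test1, 201 FPKM in Test2 and 147 FPKM in Test3 (set means). Mt2, a metal-binding metallothionein, was at 143, 478, 1250, 1470 and 1270 FPKM in the same order. All of these, with Lcn2, had their lowest mean in Blank, the next in Control and the highest in Test2. For Cp the nearest genes were Uaca (0.068), D10Wsu102e (0.103) and Dlg1 (0.104), with a median distance of 0.297. Distances from Cp were thus small for most genes. The likeness is a description over libraries that share their set.

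**Figure D5:**
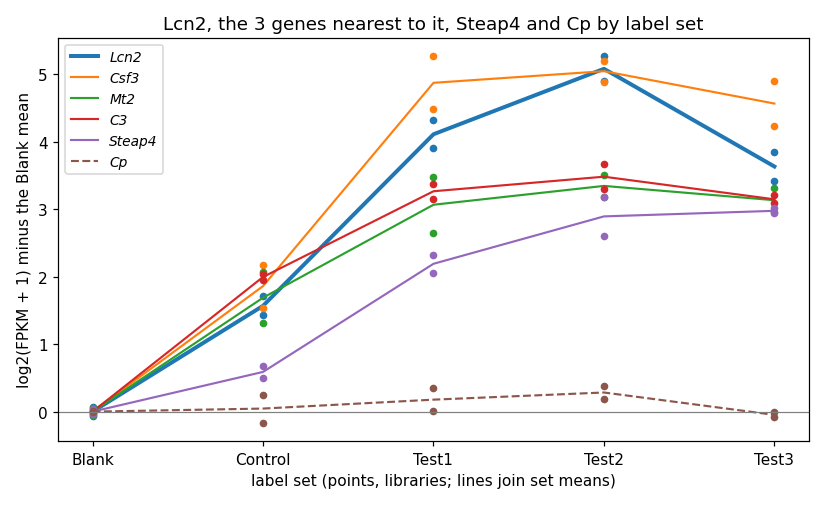
log2(FPKM + 1) minus its mean in the Blank libraries (y axis) by label set (x axis) for Lcn2, the 3 genes nearest to it (Csf3, Mt2 and C3), Steap4 and Cp; points are libraries and lines join set means. Lcn2 rose by 1.57 from Blank to Control and by 5.08 from Blank to Test2, while Cp stayed near 0.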

How the data were processed

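Per the study's methods and the submitters' processing notes, BGI sequenced RNA of the PyMt line (Illumina HiSeq) and reads were aligned with Bowtie to mm10. The authors deposited FPKM of 17171 genes with 2 decimals. For the FPKM program and its strand setting, the sources used here give nothing. The study's own tests need read counts, so limma 3.58.1 in R 4.3.3 was used on log2(FPKM + 1), over the 11169 genes that reached 1 FPKM in 4 or more libraries (two-sided, eBayes trend, Benjamini-Hochberg adjustment, threshold 0.05). One fit compared 6 test with 4 control libraries, and another had the 5 label sets as groups. The exact permutation test covered the 210 splits of libraries. The depth estimate used 5571 genes with a single transcript. Groups came from the sample titles.

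The members and gene lists were chosen with earlier results of these data known. Named genes were the 6 members, at most 5 called genes per list by size of change, and the 3 genes nearest in pattern to each tested member. Genes outside this rule are given in the report as chosen after their values were seen, with some exceptions. These are cell type markers, the relatives Saa1, Orm2 and Orm3 that could share reads, and Hps3, which overlaps Cp. Coordinates and upstream sequence came from RefSeq (GRCm38.p6, the assembly of mm10), transcript lengths and exons from GENCODE. Of the gene numbers, 17113 were found there, and 24 symbols that a spreadsheet had turned into dates were restored. Python 3.11.15 with pandas 2.3.3, numpy 2.4.6, scipy 1.17.1 and matplotlib 3.10.9 was used for reading and plotting. The fit was tested on simulated data. Alternatives concerned pseudocount, filter, scaling, the replicate block, the trend, the choice of control libraries, the unit of replication and each library or set left out. The fits with Blank-tagged libraries alone as control and without each test set, the unfiltered fits without 1 test library, and the 10 pairs of sets, were chosen after seeing the data.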

Additional observations from a re-analysis of the deposited data

Results flagged for a closer look

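The difference of Lcn2 between test sets was tested directly: Test3 differed from the mean of Test1 and Test2, at -0.96 as a log2 difference (limma adjusted p = 0.01128), where 3.13% of all genes were called lower. Without Test3-1, which weighed on this call, the difference was -0.74. Among the 12 groups screened (6 genes in control and in test libraries), 1 had a library far from the others. Hp was at 0.06 FPKM in Blank-1, about 1 read, and at 0 in the other 3 control libraries. With the other 3 at 0, any value above 0 in Blank-1 would have been flagged, and a group at 0 throughout could not be. Chance flags about 1 group in 20 where values spread continuously, a rate that does not hold for values at or near 0.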

How the results depend on the processing

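Lcn2 was called higher in test in 22 of 23 alternatives, with a log2 difference of 2.71 to 4.27. The exception was the fit of set means (adjusted p = 0.2477 from limma). Of the 2 genes in that fit, Lcn2 and Cp, 0 were called and 1 had an unadjusted p under 0.05. The number of genes called over the whole table, 879 in the fit reported, was 548 without the filter, 302 with the set as a random effect (correlation 0.35), 0 with set means (1426 at an unadjusted p under 0.05), 44 with Control-tagged libraries alone as control, 1693 with Blank-tagged libraries alone, 194 without Test1 and 373 without Test3. Leaving out 1 library gave 145 to 1456 genes, the lowest without Blank-1 or Blank-2 and the highest without Control-1. Whether library numbers pair the samples is not stated in the labels. Differences between library 1 and library 2 correlated from -0.52 to 0.261 between sets (median -0.075, 10 pairs of sets), which cannot settle it. With the number as a replicate block 554 genes were called, and Lcn2 kept its call (adjusted p = 0.00524 from limma). In Test3 against the mean of Test1 and Test2, 3 genes (Lcn2, Saa3 and Ptx3) were called without the filter (Ptx3 with all libraries in only) and 0 without Test3-1, a range of 0 to 1 over libraries left out, where Lcn2 had an unadjusted p of 0.005501. Cp, not called in any of these fits, changed sign with 1 library left out: its range was -0.115 to 0.3 against Control-tagged libraries (lowest without Control-1), -0.162 to 0.253 between control sets (lowest without Control-2), and -0.276 to 0.063 in Test1 against Test2 (highest without Test1-2).

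Hp, not called in the report, had an exact permutation p of 0.0429 with a pseudocount of 0.1 FPKM or on the TPM scale, 0.0238 without Test2-2, and 0.0286 without the Test2 set, as had Saa3. Orm1 had 0.0286 without Test3. These are unadjusted for the alternatives tried. The TPM scale moved the median log2 difference of all genes from -0.034 to -0.101 and median ratios to 0.011. Depth limits Saa3, Hp, Ptx3 and Orm1, for which 1 read is worth 0.036 to 0.167 FPKM. The cause of these changes was not tested. Fits of fewer units have fewer degrees of freedom, and the part of this in the changes was not tested either.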
